A study of Mus musculus with 6 samples.

Results

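The 10 genes described here encode network-forming and linking parts of the basement membrane: 5 type IV collagen chains (*Col4a1*, *Col4a2*, *Col4a3*, *Col4a4* and *Col4a5*), the core proteins of collagens XV and XVIII (*Col15a1* and *Col18a1*), both nidogens (*Nid1* and *Nid2*) and perlecan (*Hspg2*). They were chosen by name, for what their proteins do, but with earlier results of these data known. Each matched 1 of the 25403 genes listed. All 10 had enough counts to be tested, among 14496 genes tested in all. Poly(A) RNA was sequenced from the livers of 3 mice labelled WT (C57BL6/J) and 3 labelled *Themis*-KO, a whole-body knockout whose strain the labels do not give. All 6 mice ate the MASH diet, with 40% of energy as fat, 20% as fructose and 2% cholesterol by label, for 3 months from an age of 10 to 12 weeks. MASH is metabolic dysfunction-associated steatohepatitis, a fatty liver disease with inflammation and fibrosis, and the question was how loss of *Themis*, an adaptor of T cell receptor signalling, changed the liver on that diet.

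A basement membrane is a thin sheet of matrix under epithelia and around vessels. Type IV collagen chains assemble in threes into a helical molecule and then into a network, laminins form a second network, and nidogens and perlecan bind to both. The liver is unusual in that its sinusoids lack a continuous basement membrane in health, while bile ducts and larger vessels have one. Deposition of type IV collagen and laminin along the sinusoids, called capillarization, is a known feature of fibrotic liver.

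The libraries held 20679642 to 25649767 counts, and no pair of livers of the same label agreed within sampling noise. *Themis* itself did not separate the labels. Its level was 8.07, 25.6 and 12.0 CPM (counts scaled to library size by the TMM method) in the 3 livers labelled WT and 8.63, 7.74 and 9.97 in those labelled *Themis*-KO, and the part of the gene that was deleted is not given in the sources used here, so the groups are named by their labels. The WT livers of replicates 1 and 2 also stood apart from the other 4 livers. In these, *Gm28438* held 96.6% and 96.8% of the summed counts of *Gm28438* and the mitochondrial gene *mt-Nd3*, against 2.20% to 3.26% in WT replicate 3 and the livers labelled *Themis*-KO. For this reason each of the 10 genes is also given against WT replicate 3 alone, without a test. The hepatocyte markers of the labelled tissue, *Alb* and *Ttr* among the 10 listed, summed to 50597 to 68857 CPM over the 6 livers.

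Of the 10 genes, 4 were higher in the livers labelled *Themis*-KO at an adjusted p under 0.05 (*Col4a1*, *Col4a5*, *Nid1* and *Hspg2*) and 0 were lower (unadjusted p under 0.05: 5 higher, 0 lower, edgeR). Among all genes tested, 4.97% were higher and 4.14% were lower by the same rule. In 5 of the 10 every liver labelled *Themis*-KO lay above every liver labelled WT, against 17.7% of all genes, and in 0 every one lay below, against 16.9%. The median log2 fold change over the 10 genes was 0.43, and that over all genes was 0.0095. *Col18a1* was the exception in direction, with a lower mean level in the livers labelled *Themis*-KO. In whole liver RNA, fewer cells of a type and less RNA per cell cannot be told apart. These calls were lost when the first or the second liver of either label was left out. Each time 0 of 10 passed by adjusted p and 5 of 10 by unadjusted p (edgeR). Without the third *Themis*-KO liver 5 were higher and 1 was lower (*Col18a1*), and without the third WT liver 1 was higher. Calls among all genes also moved with the liver left out. From 8 to 27 genes were higher without the first or second liver of either label. Without the third *Themis*-KO liver 2228 were higher, and without the third WT liver 481. With the split at *Gm28438* and *mt-Nd3* as a covariate the calls were also lost. The log2 fold changes were then smaller for *Col4a1* (0.77, from 0.93) and *Nid1* (1.20, from 1.55). They were not smaller for *Col4a5* (1.15, from 1.00) and *Hspg2* (0.45, from 0.42). With total counts in place of TMM scaling, the median over all genes moved to 0.15 and the all-gene calls from 721 higher and 600 lower to 1449 and 387, and 5 of the 10 genes were higher.

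**Figure D1:**
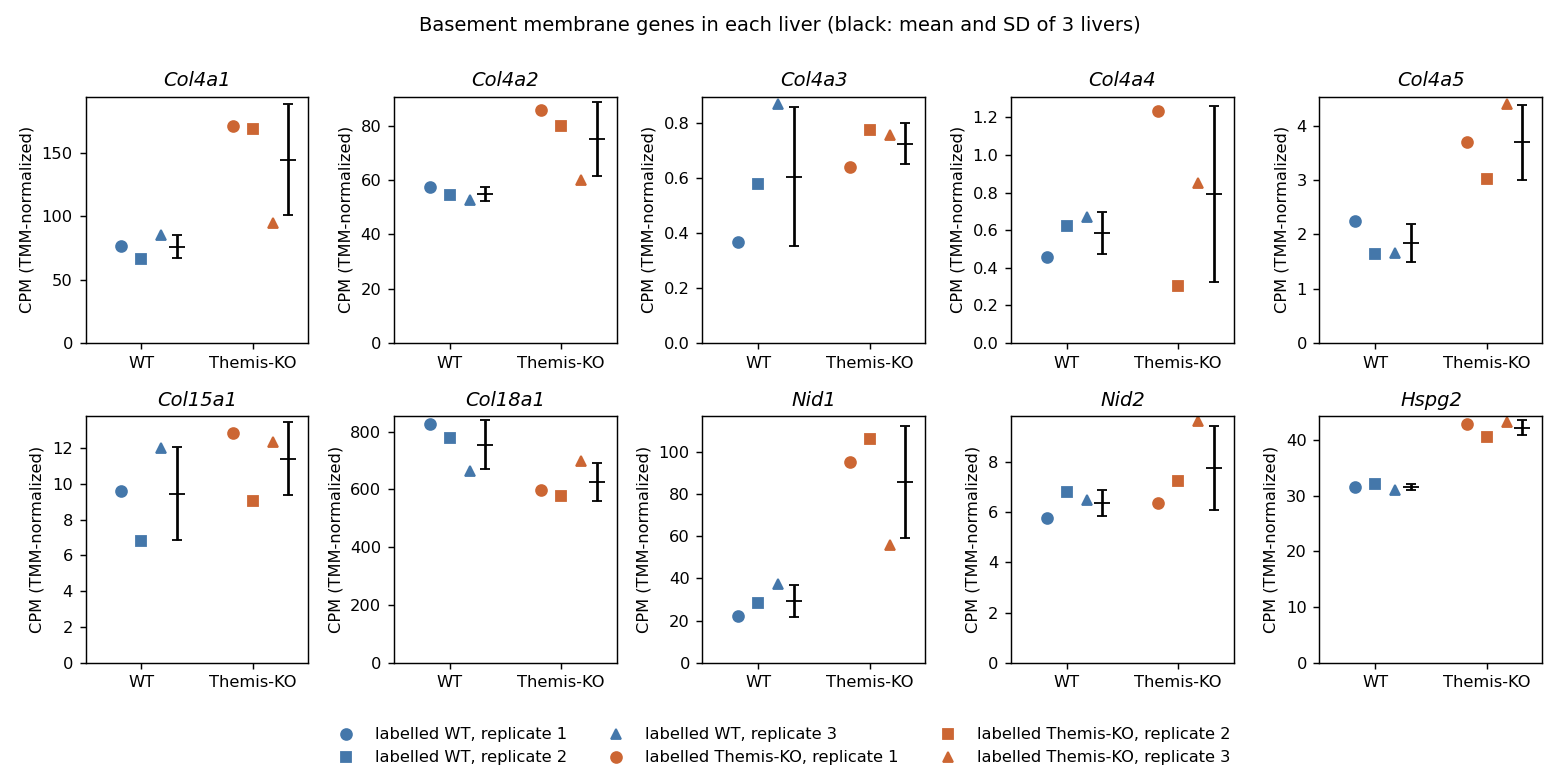
TMM-normalized CPM (linear axis from 0) of each of the 10 genes in the 6 livers, with a point per liver, its shape giving the replicate number, and a black bar for the mean and SD of 3 livers. Points of the livers labelled *Themis*-KO lie above all WT points for *Col4a1*, *Col4a2*, *Col4a5*, *Nid1* and *Hspg2*, and the third *Themis*-KO liver is the lowest of its group for *Col4a1*, *Col4a2* and *Nid1*.

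*Col4a1* and *Col4a2* encode the chains of the commonest type IV molecule, which is found in nearly all basement membranes. In the mouse they lie head to head on chromosome 8 (GRCm38, GENCODE vM21), with *Col4a1* at 11198423-11312826 on the reverse strand and *Col4a2* at 11312805-11449287 on the forward strand, so that their first exons overlap by 22 bases. The sequence is given because both genes start in it. It is from RefSeq on GRCm38.p6, chr8:11312801-11312830, forward strand, and the capitals mark the 22 bases annotated as transcribed in both directions.
Col4a2 and Col4a1: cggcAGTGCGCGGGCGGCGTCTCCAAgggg

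*Col4a1* was at 76.8, 66.5 and 84.8 CPM in the livers labelled WT and at 171, 169 and 94.5 CPM in those labelled *Themis*-KO. The groups did not overlap, but the third *Themis*-KO liver lay close to the WT range. The mean rose from 76.0 ± 9.22 to 145 ± 43.6 CPM (SD, n = 3), a log2 fold change of 0.93 (SE 0.22, edgeR adjusted p = 0.0428), or 1.90-fold. Against WT replicate 3 alone, the mean of the *Themis*-KO livers was 1.71 times as high.

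*Col4a2* was at 57.5, 54.3 and 52.5 CPM in WT and at 85.9, 79.8 and 59.8 CPM in *Themis*-KO. Here too the *Themis*-KO livers were the 3 highest, with the third again the lowest of them. The log2 fold change of 0.46 (SE 0.14) did not pass in edgeR (adjusted p = 0.0701), and passed in DESeq2 (adjusted p = 0.0342) and with total counts as the scale (adjusted p = 0.0391). The mean was 54.7 ± 2.53 CPM in WT and 75.2 ± 13.6 CPM in *Themis*-KO (SD, n = 3), and 1.43 times that of WT replicate 3 alone.

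A ratio of 2 genes in the same liver does not depend on the scaling of the library. For each *Col4a1* count there were 0.748, 0.817 and 0.619 *Col4a2* counts in the WT livers and 0.502, 0.473 and 0.633 in the *Themis*-KO livers. The third *Themis*-KO liver lay just above WT replicate 3, and the mean log2 ratio was −0.47 ± 0.20 in WT and −0.91 ± 0.22 in *Themis*-KO (SD, n = 3; exact two-sided permutation p = 0.2). The share of *Col4a2* in the summed per-length level depended on the genes summed. Of all 10 genes it made up 5.99% to 6.36% in WT and 6.60% to 9.16% in *Themis*-KO, without overlap. With *Col18a1* left out of the sum the order turned, with 26.1% to 31.7% in WT and 21.5% to 24.2% in *Themis*-KO.

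*Col4a3*, *Col4a4* and *Col4a5* encode the chains of the type IV molecule best known from the glomerular basement membrane of the kidney, the site of Alport syndrome. *Col4a3* (1:82586921-82722059, forward strand) and *Col4a4* (1:82448423-82586849, reverse strand) are a second head-to-head pair, with 71 bases between their annotated starts. Those bases are shown for comparison with the *Col4a1* and *Col4a2* stretch. They are from RefSeq, chr1:82586850-82586920, forward strand, and hold no copy of the GC box GGGCGG on either strand, which is what capitals would mark.
Col4a3 and Col4a4: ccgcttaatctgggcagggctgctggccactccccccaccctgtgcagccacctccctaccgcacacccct

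*Col4a3* was near the limit of detection, with 8, 12 and 22 counts in the WT livers and 15, 18 and 16 in the *Themis*-KO livers. These correspond to 0.367, 0.576 and 0.868 CPM and to 0.637, 0.774 and 0.756 CPM. The groups overlapped, and the log2 fold change was 0.24 (SE 0.36, edgeR adjusted p = 0.685), with a *Themis*-KO mean of 0.832 times WT replicate 3. *Col4a3* shares 563 exon bases on the opposite strand with *C430014B12Rik*, and as the strand setting of the counting is not given in the sources used here, its counts are uncertain.

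*Col4a4* also had few counts, with 10, 13 and 17 counts in WT and 29, 7 and 18 in *Themis*-KO. Its levels of 0.459, 0.624 and 0.671 CPM and of 1.23, 0.301 and 0.850 CPM overlapped, with both the highest and the lowest value in *Themis*-KO livers. The log2 fold change was 0.43 (SE 0.49, edgeR adjusted p = 0.574), and the *Themis*-KO mean was 1.18 times WT replicate 3. The log2 ratio of *Col4a3* to *Col4a4* differed by 0.087 between the groups (exact two-sided permutation p = 0.9).

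*Col4a5*, on the X chromosome (141475385-141689234, forward strand), was the most abundant of these 3 chains per kilobase of exon, at 0.275 ± 0.0519 CPM per kilobase in WT against 0.0606 ± 0.0253 for *Col4a3* and 0.0551 ± 0.0105 for *Col4a4* (SD, n = 3). Its levels were 2.25, 1.63 and 1.66 CPM in WT and 3.70, 3.01 and 4.39 CPM in *Themis*-KO, from 34 to 49 and 70 to 93 counts. All *Themis*-KO livers lay above all WT livers, and unlike *Col4a1* the third *Themis*-KO liver was the highest. The mean rose from 1.85 ± 0.349 to 3.70 ± 0.691 CPM (SD, n = 3), a log2 fold change of 1.00 (SE 0.23, edgeR adjusted p = 0.0398), or 2.00-fold. It was 2.23 times the level of WT replicate 3. Per *Col4a1* count there were 0.0295, 0.0249 and 0.0198 *Col4a5* counts in WT and 0.0217, 0.0180 and 0.0467 in *Themis*-KO (exact two-sided permutation p = 0.9). *Col4a6*, the remaining chain, starts 1308 bases from *Col4a5* on the opposite strand and was listed at 0.172 to 0.935 CPM over the 6 livers (log2 fold change 0.77, SE 0.61, edgeR adjusted p = 0.412).

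*Nid1* encodes nidogen-1, a linker that binds laminin and type IV collagen. It lies at 13:13437551-13512269 on the forward strand. The bases upstream of its first annotated start are shown because *Nid1* had the largest log2 fold change of the 10, beside those of *Hspg2*, which rose with a small spread, and *Col18a1*, the gene with a lower mean. They are from RefSeq on GRCm38.p6, in the direction of the gene, and capitals mark each GC box (GGGCGG or its reverse complement CCGCCC). The stretches are chr13:13437352-13437550 for *Nid1*, chr4:137468553-137468768 for *Hspg2* and chr10:77166549-77166780 on the reverse strand for *Col18a1*.
Nid1: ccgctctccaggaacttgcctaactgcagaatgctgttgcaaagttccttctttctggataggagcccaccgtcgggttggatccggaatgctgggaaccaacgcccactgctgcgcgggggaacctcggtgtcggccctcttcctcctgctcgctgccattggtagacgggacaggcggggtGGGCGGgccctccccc
Hspg2: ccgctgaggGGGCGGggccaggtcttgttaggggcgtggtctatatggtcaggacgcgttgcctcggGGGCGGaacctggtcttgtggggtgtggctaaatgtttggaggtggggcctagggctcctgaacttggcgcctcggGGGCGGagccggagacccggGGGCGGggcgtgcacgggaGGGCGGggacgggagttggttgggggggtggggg
Col18a1: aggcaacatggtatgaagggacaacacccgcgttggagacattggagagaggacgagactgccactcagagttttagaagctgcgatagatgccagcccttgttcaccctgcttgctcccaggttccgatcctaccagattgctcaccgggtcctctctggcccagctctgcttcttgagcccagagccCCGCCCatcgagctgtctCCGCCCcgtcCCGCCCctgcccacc

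These stretches hold 1 GC box in *Nid1*, 5 in *Hspg2* and 3 in *Col18a1*. The window of 300 bases around the other RefSeq start of *Col18a1*, at 10:77113705, held 0. In windows of 300 bases around the RefSeq starts of the 8 of the 10 genes in the table (*Col4a3* and *Nid2* were not matched), 6 of 9 windows held a GC box, as did 35.6% of all 32817 windows. A CCAAT box (CCAAT or ATTGG) was in 5 of 9 windows and in 37.4% of all windows. The AP-1 site TGAGTCA (or TGACTCA) and TATAAA (or TTTATA) were in 0 of 9 windows, and in 5.2% and 13.6% of all windows. The windows of *Col4a1* and *Col4a2* overlap, and *Col18a1* has 2 windows, so the 9 are not separate cases.

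*Nid1* was at 22.1, 28.3 and 37.3 CPM in WT and at 95.3, 106 and 55.7 CPM in *Themis*-KO. The groups did not overlap, and as for *Col4a1* and *Col4a2* the third *Themis*-KO liver was the lowest of its group. The mean rose from 29.3 ± 7.65 to 85.8 ± 26.6 CPM (SD, n = 3), a log2 fold change of 1.55 (SE 0.27, edgeR adjusted p = 0.0241), or 2.93-fold, and 2.3 times the level of WT replicate 3. Each *Col4a1* count was accompanied by 0.288, 0.426 and 0.440 *Nid1* counts in WT and by 0.557, 0.630 and 0.590 in *Themis*-KO. The log2 ratio of *Nid1* to *Col4a1* was higher in each *Themis*-KO liver than in any WT liver, by 0.65 in the mean (exact two-sided permutation p = 0.1, the smallest that 3 against 3 livers allow, and 0.4 after Benjamini-Hochberg adjustment over 10 ratios).

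*Nid2*, which encodes nidogen-2, was at 5.78, 6.81 and 6.51 CPM in WT and at 6.37, 7.27 and 9.63 CPM in *Themis*-KO. The groups overlapped, and the log2 fold change was 0.28 (SE 0.18, edgeR adjusted p = 0.318), with a *Themis*-KO mean of 1.19 times WT replicate 3. Without *Themis*-KO replicate 3 the log2 fold change was 0.083. *Nid2* (14:19751265-19811787, forward strand) shares 437 exon bases on the opposite strand with *Rtraf*, which held 9249 counts over the 6 livers, so its counts are uncertain. Against *Nid1* there were 0.262, 0.241 and 0.175 *Nid2* counts per *Nid1* count in WT and 0.0671, 0.0686 and 0.173 in *Themis*-KO. All *Themis*-KO livers were below all WT livers, the third by a small margin, and the mean log2 ratio differed by −1.26 (exact two-sided permutation p = 0.1, adjusted 0.4).

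**Figure D2:**
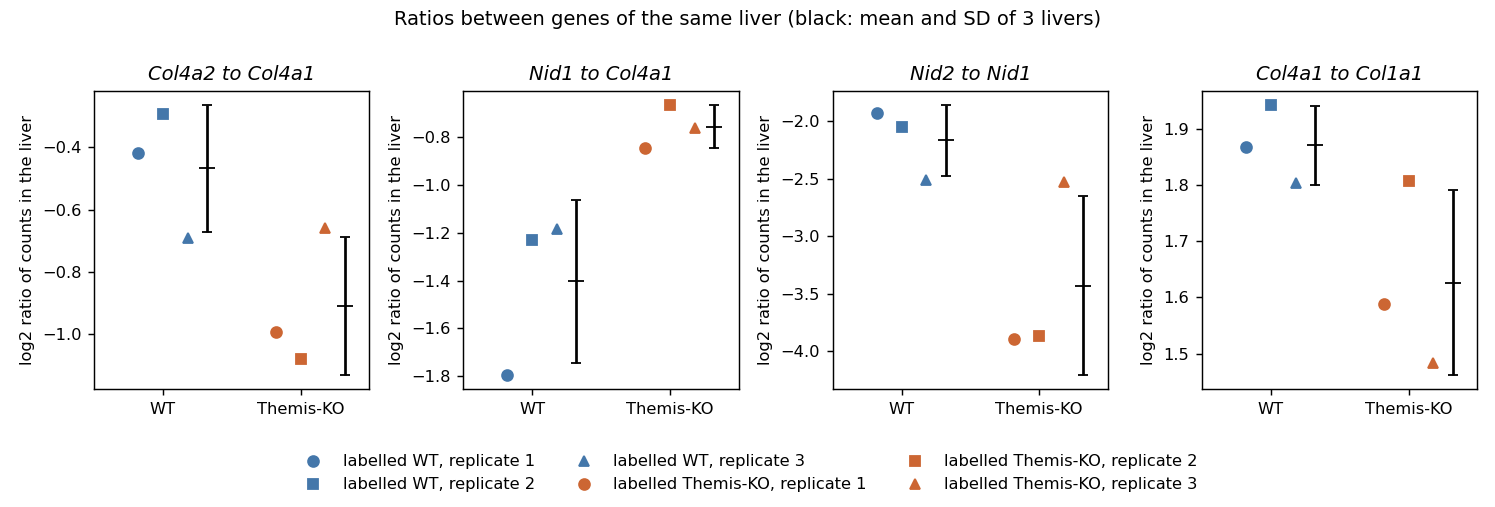
Log2 ratios of counts (with 0.5 added to each) within each liver for 4 pairs of genes, with a point per liver and a black bar for the mean and SD of 3 livers. The *Nid1* to *Col4a1* ratio separates the labels upward by 0.65 and the *Nid2* to *Nid1* ratio downward, while the *Col4a2* to *Col4a1* and *Col4a1* to *Col1a1* ratios overlap.

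*Hspg2* encodes perlecan, a heparan sulfate proteoglycan that binds growth factors and the laminin and collagen networks. It lies at 4:137468769-137570630 on the forward strand. Its levels were 31.6, 32.2 and 30.9 CPM in WT and 42.8, 40.6 and 43.2 CPM in *Themis*-KO, with the smallest spread relative to the mean among the 10 genes in both groups. The mean rose from 31.6 ± 0.608 to 42.2 ± 1.39 CPM (SD, n = 3), a log2 fold change of 0.42 (SE 0.076, edgeR adjusted p = 0.0255), or 1.34-fold, and 1.36 times the level of WT replicate 3. Against *Col4a1* its counts ran from 0.365 to 0.484 per count in WT and from 0.241 to 0.457 in *Themis*-KO, a difference in log2 ratio of −0.47 (exact two-sided permutation p = 0.3).

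*Col18a1* (10:77052178-77166548, reverse strand) encodes the core protein of collagen XVIII, whose cleaved end is endostatin, an inhibitor of vessel growth, and hepatocytes are a known source of it. It was at 825, 777 and 662 CPM in WT and at 597, 577 and 699 CPM in *Themis*-KO. The third *Themis*-KO liver lay above WT replicate 3, so the groups overlapped. The mean was 755 ± 83.5 CPM in WT and 624 ± 65.6 CPM in *Themis*-KO (SD, n = 3), with a log2 fold change of −0.27 (SE 0.12, edgeR adjusted p = 0.168, unadjusted p = 0.0532). Without *Themis*-KO replicate 3 the log2 fold change was −0.38 (edgeR adjusted p = 0.0476), and the mean of the *Themis*-KO livers was 0.942 times the level of WT replicate 3.

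*Col15a1* (4:47208161-47313167, forward strand) encodes the related collagen XV, found where basement membranes meet the fibrous matrix. Its levels of 9.59, 6.81 and 12.0 CPM in WT and 12.8, 9.08 and 12.3 CPM in *Themis*-KO overlapped. The log2 fold change was 0.27 (SE 0.22, edgeR adjusted p = 0.447) and ran from 0.076 (without WT replicate 2) to 0.47 (without WT replicate 3) with 1 liver left out, and the *Themis*-KO mean was 0.951 times the level of WT replicate 3. The log2 ratio of *Col15a1* to *Col18a1* was higher by 0.56 in *Themis*-KO, with overlapping livers (exact two-sided permutation p = 0.3).

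**Figure D3:**
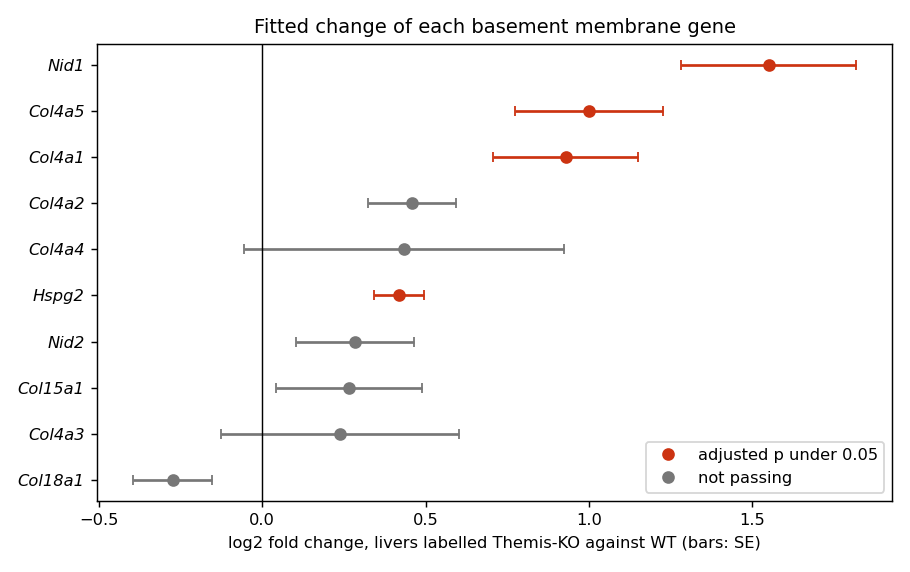
Log2 fold change of each gene, livers labelled *Themis*-KO against WT (horizontal axis), with its standard error as a bar and the genes in order of size. Red points passed an adjusted p of 0.05 (*Nid1*, *Col4a5*, *Col4a1* and *Hspg2*), grey points did not, and *Col18a1* is the only gene to the left of 0.

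Levels of different genes were compared per kilobase of annotated exon, as CPM per kilobase. *Col18a1* was by far the most abundant of the 10 on this scale, at 108 ± 11.9 in WT and 88.9 ± 9.34 in *Themis*-KO (SD, n = 3). Next came *Col4a1* at 10.2 ± 1.23 and 19.4 ± 5.84, *Col4a2* at 8.27 ± 0.382 and 11.4 ± 2.06, *Nid1* at 4.21 ± 1.10 and 12.4 ± 3.83, and *Hspg2* at 2.21 ± 0.0425 and 2.95 ± 0.0975. In WT, the mean of *Col4a1* exceeded that of *Col4a2* by more than the SD of either, and in each *Themis*-KO liver *Nid1* lay below *Col4a1*, while its order against *Col4a2* differed between those livers. *Col15a1* (1.49 and 1.80), *Nid2* (1.23 and 1.5) and *Col4a5* (0.275 and 0.551) followed, and *Col4a3* and *Col4a4* were below 0.1 in both groups with overlapping spreads.

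The summed per-length level of the 10 genes was 145, 137 and 125 CPM per kilobase in WT and 142, 138 and 137 in *Themis*-KO, with overlapping groups. Without *Col18a1* it was 27.4, 26.2 and 30.4 in WT and 56.6, 56.2 and 37.3 in *Themis*-KO, with all *Themis*-KO livers higher. *Col18a1* made up 79.2% ± 3.08 of the summed level in WT and 64.0% ± 7.52 in *Themis*-KO (SD, n = 3), without overlap. The share of *Nid1* was 3.16% ± 1.07 and 8.87% ± 2.7, and that of *Col4a1* was 7.57% ± 1.37 and 13.9% ± 4.05. With *Col18a1* left out of the sum, *Nid1* made up 15.0% ± 3.09 in WT and 24.3% ± 2.88 in *Themis*-KO (SD, n = 3), without overlap. *Col4a1* then made up 36.3% ± 2.00 in WT and 38.2% ± 3.74 in *Themis*-KO, with overlapping groups.

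**Figure D4:**
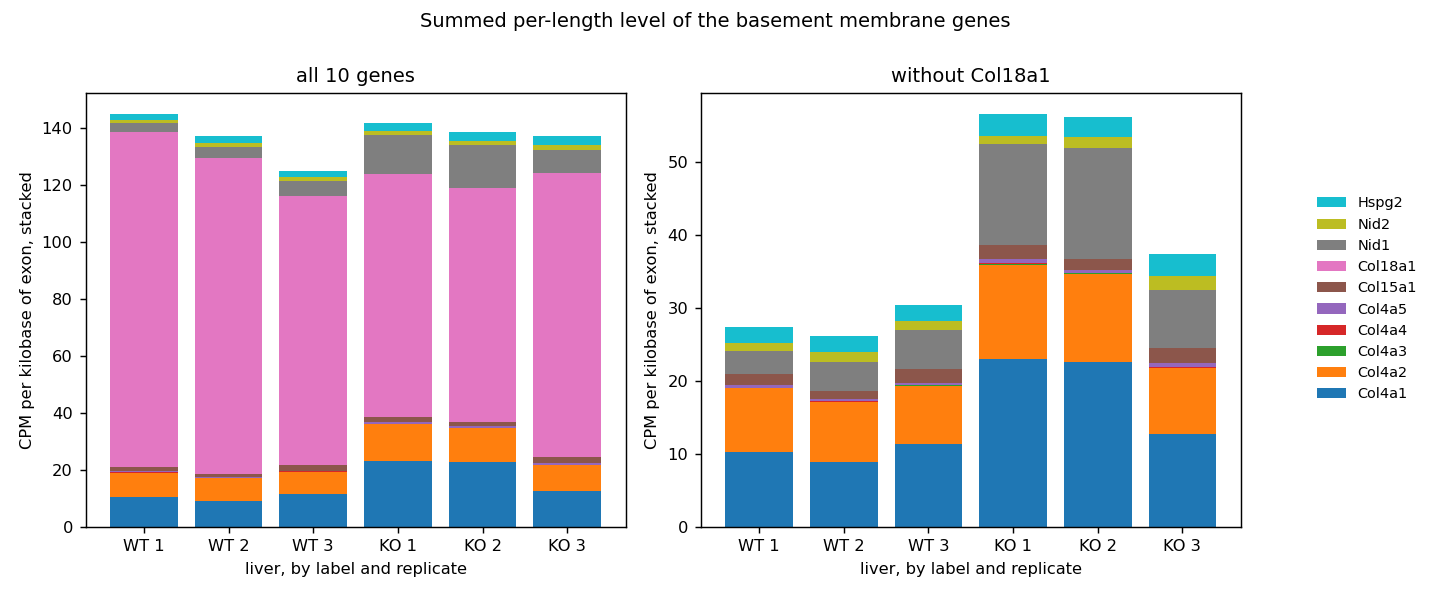
Stacked level in CPM per kilobase of exon (linear axis from 0) of the 10 genes in each liver, with all genes on the left and without *Col18a1* on the right. The stacks on the left are of similar height because *Col18a1* fills most of each, and on the right the *Themis*-KO stacks reach 56.6, 56.2 and 37.3 against 26.2 to 30.4 in WT.

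The other genes of the basement membrane were read from a list of 62 by role, of which 60 could be tested (*Frem2* and *Tll1* could not). Of these, 10 were higher in the livers labelled *Themis*-KO at an adjusted p under 0.05 and 2 were lower, and their median log2 fold change was 0.38. Among all genes tested 4.97% were higher and 4.14% lower, with a median of 0.0095. The counts by role and by cell type below stand beside these same shares. Among the 11 laminin chains, which form the network that cells bind first, 2 were higher and 1 was lower. *Lama5* rose from 6.58 ± 0.687 to 14.1 ± 4.06 CPM (log2 fold change 1.11, edgeR adjusted p = 0.0293) and *Lamc1*, the γ1 chain of most laminins, from 27.4 ± 2.60 to 62.2 ± 21.0 CPM (1.18, adjusted p = 0.0317). *Lama3*, the α chain of an epithelial laminin, fell from 4.43 ± 0.433 to 1.47 ± 0.244 CPM (log2 fold change −1.59, edgeR adjusted p = 0.0115), and its partner *Lamb3* did not pass (−0.68, adjusted p = 0.0545).

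Of 14 other components and linkers, 1 was higher and 0 were lower. *Sparc*, a protein that binds collagens, rose from 71.9 ± 3.84 to 115 ± 4.66 CPM (log2 fold change 0.67, edgeR adjusted p = 0.0112). None of the 14 genes that modify, fold or crosslink collagen passed (0 in either direction, edgeR, and by unadjusted p 5 higher and 0 lower). Among these 5, *Serpinh1*, the collagen chaperone gene, had a log2 fold change of 0.73 (edgeR adjusted p = 0.0893), with overlapping groups. The crosslinking enzyme gene *Loxl2* had one of 0.85 (edgeR adjusted p = 0.0599), without overlap.

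Of 13 receptors 4 were higher and 1 was lower. *Ddr1*, a receptor kinase for collagens, rose by a log2 fold change of 1.54 (edgeR adjusted p = 0.0223), *Bcam*, a receptor for laminin α5, by 0.73 (0.0392), *Itga6*, a laminin-binding integrin chain, by 1.33 (0.0395), and *Itga2*, a collagen-binding one, by 1.37 (0.0460). *Sdc2*, a heparan sulfate proteoglycan of the cell surface, fell, with a log2 fold change of −0.42 (adjusted p = 0.0407). Of 7 genes of breakdown, 3 were higher and 0 lower: the matrix metalloproteinase genes *Mmp2* (0.66, edgeR adjusted p = 0.0395) and *Mmp14* (0.72, 0.0407), and the lysosomal protease gene *Ctsb* (0.35, 0.0498).

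**Figure D5:**
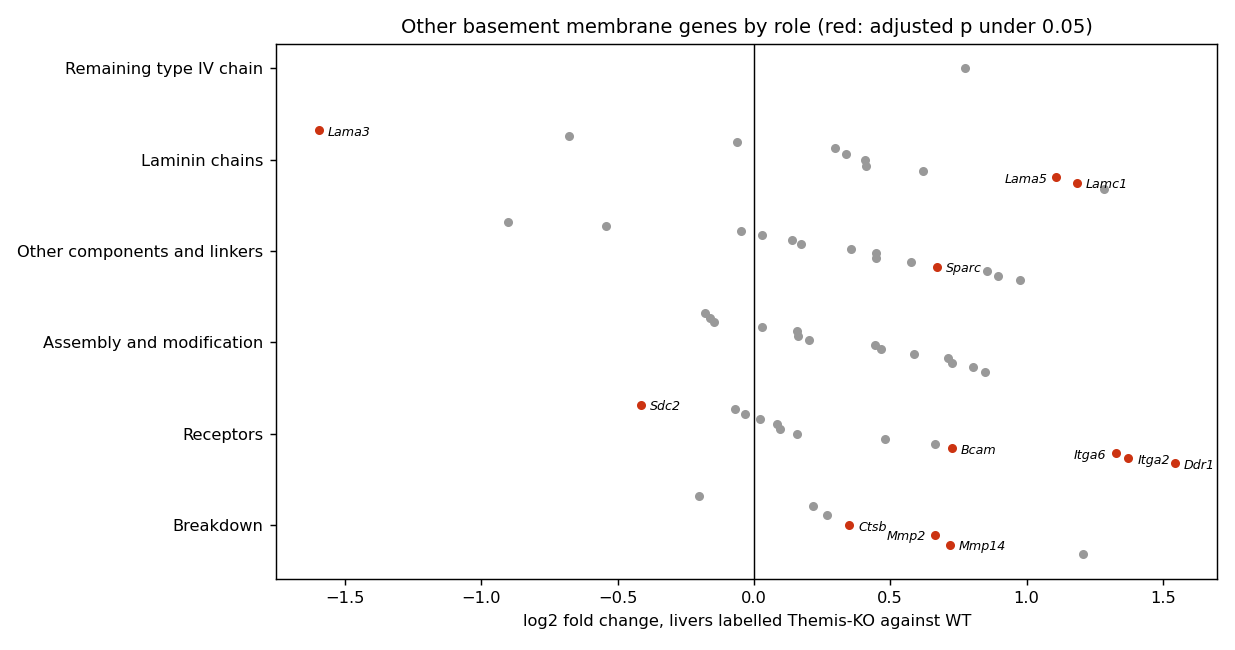
Log2 fold change (horizontal axis) of the 60 other basement membrane genes tested, with a point per gene and a row per role. Named red points passed an adjusted p of 0.05: 10 lie to the right of 0 and *Lama3* and *Sdc2* to the left.

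Markers of several cell types that make these proteins moved with the same labels, and their part in the changes above was not tested. Among 8 markers of activated stellate cells and myofibroblasts, the collagen-making cells of fibrosis, 6 were higher (*Col1a1*, *Col1a2*, *Col3a1*, *Timp1*, *Lox* and *Postn*), with summed levels of 163 to 189 CPM in WT and 291 to 375 CPM in *Themis*-KO and a median log2 fold change of 0.97. Of 10 markers of stellate cells, 2 were higher (*Pdgfrb* and *Dcn*), with summed levels of 443 to 489 and 556 to 614 CPM. Of 5 markers of portal fibroblasts, 2 were higher (*Eln* and *Cd34*), and all 6 listed, 1 of them not tested, summed to 16.8 to 20.5 and 27.1 to 31.4 CPM.

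Endothelial markers were called less often than those of activated stellate cells, a difference that was not tested. Of 8 sinusoidal markers 1 was higher (*Lyve1*), with sums of 273 to 309 CPM in WT and 310 to 358 CPM in *Themis*-KO, and of 8 vascular markers 1 was higher (*Plvap*), with sums of 200.5 to 230.0 and 253 to 265 CPM. Of 7 markers of cholangiocytes, the bile duct cells, 0 were higher or lower (edgeR, 3 higher at an unadjusted p under 0.05), with a median log2 fold change of 0.96, which was 0.39 without *Themis*-KO replicate 1. All 8 listed, 1 of them not tested, summed to 27.2 to 31.6 CPM in WT and 32.1 to 59.5 CPM in *Themis*-KO. Both mesothelial markers tested failed to pass (0 at an unadjusted p under 0.05), and all 4 listed summed to 0.505 to 1.54 and 0.614 to 1.70 CPM.

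Of 10 hepatocyte markers 1 was lower (*Cyp2e1*), and the sums were 64180 to 68857 CPM in WT and 50597 to 54451 CPM in *Themis*-KO. Of 8 macrophage markers 3 were higher (*Cd68*, *Trem2* and *Gpnmb*), with sums of 281 to 451 and 478 to 608 CPM. Of 5 T cell markers 1 was lower (*Cd4*), and all 6 listed, 1 of them not tested, summed to 3.60 to 5.01 and 2.71 to 6.97 CPM. Of 4 kidney genes looked for because *Col4a3*, *Col4a4* and *Col4a5* are abundant there, *Nphs1* was in the table, at 2.21 to 3.21 CPM over the 6 livers. No marker in the table was at 0 in all 6 livers.

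Fibrillar collagen genes were the last comparison for *Col4a1*. It had 3.65, 3.84 and 3.49 counts per *Col1a1* count in WT and 3.01, 3.50 and 2.80 in *Themis*-KO, a difference in log2 ratio of −0.24 (exact two-sided permutation p = 0.2). Against *Col3a1* the difference was −0.051 (p = 0.9, the same exact permutation test). Against *Pecam1*, an endothelial surface gene, it was 0.61, with 3.85, 3.46 and 3.92 counts per count in WT and 7.36, 6.52 and 3.89 in *Themis*-KO (exact permutation p = 0.2). There the first and second *Themis*-KO livers lay above all WT livers and the third lay between them.

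The pattern of *Col4a1* over the 6 livers was close to that of *Tubb6* (Pearson r of log2 CPM 0.999), *Sntb2*, *Cxadr* and *Dtx4* (all at 0.997). Among the 14495 other genes tested, *Col4a2* ranked 518 (r = 0.96) and *Nid1* 753 (r = 0.95) by likeness to *Col4a1*, and *Col18a1* had r = −0.90. *Col15a1* was most like *Plcl1*, *Nrp2*, *Gm49492*, *Ints11* and *Guca1a* (r of 0.972 to 0.986), and *Col18a1* was most like *Paf1*, *Teddm2*, *Nthl1*, *Odf3b* and *Tmem94* (r of 0.991 to 0.996). These are descriptions over 6 points that share library depth and the difference between the labels.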

How the data were processed

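The authors trimmed reads with cutadapt 2.3, mapped them to GRCm38 with STAR 2.7.8a and deposited an RSEM 1.3.3 estimated count per gene and liver, which the table holds as whole numbers (tools per the labels). RSEM splits reads that fit several genes, so near-identical or overlapping genes depend on each other. The annotation release and the strand setting are not given in the sources used here. Coordinates, exon lengths and overlaps are from GENCODE vM21, in which 25353 of the 25403 genes had an entry. Promoter sequence is from RefSeq tables on GRCm38.p6.

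Counts were fitted in edgeR 4.0.16 under R 4.3.3. The filterByExpr filter removed 10907 genes, libraries were scaled by TMM (factors 0.934 to 1.07), and glmQLFit and glmQLFTest compared the labels on all 6 livers without covariates, with Benjamini-Hochberg adjustment over 14496 genes and a threshold of 0.05. The common biological coefficient of variation was 0.157. Each standard error is the log2 fold change over the root of its F statistic, and CPM carry no prior count. Ratios within a liver had 0.5 added to each count and were compared by exact permutation (two-sided, smallest p 0.1). The labels do not say how the livers within a group relate, so p-values measure the spread between these livers. The fit was also run on simulated counts, with the same dispersion for every gene and no split among the WT livers. That setting differs from these livers, so the run does not show how the fit handles their spread. Alternatives were RLE, upper quartile and total count scaling, no filter, DESeq2 1.42.0, at least 10 counts in every liver, a replicate block, the mitochondrial type (the split by *Gm28438* and *mt-Nd3*) as a covariate, other thresholds, no prior count, the longest transcript as gene length, and each liver left out.

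The members and the lists were chosen with earlier results of these data known. Genes named from the lists are those with an adjusted p under 0.05, at most 4 per role by smallest p. In roles with 5 or fewer called, other genes could be named. *Timp1* and *Lox* fell outside this rule and were named after their values were seen, as were *Lamb3*, *Serpinh1*, *Loxl2*, *Alb*, *Ttr* and *Nphs1*. The 5 most alike genes were taken by Pearson r of log2 CPM with a prior count of 2. A gene that this rule covers is not reported here. Figures were drawn with matplotlib 3.10.9.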

Additional observations from a re-analysis of the deposited data

How the results depend on the processing

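The direction of *Col4a1*, *Col4a2*, *Col4a5*, *Nid1*, *Nid2* and *Hspg2* (higher) and of *Col18a1* (lower) held in all 14 alternatives, but the calls did not. *Nid1* passed in 8 of them (log2 fold change 1.20 to 1.77), *Col4a1*, *Col4a5* and *Hspg2* in 7 each, *Col4a2* in 4 and *Col18a1* in 1. With the mitochondrial type as a covariate, 0 members were higher (4 at an unadjusted p under 0.05, edgeR) and *Col4a3* (−0.26) and *Col15a1* (−0.072) turned lower, with adjusted p of 0.423 for *Nid1* and 0.489 for *Col4a1*. In that fit 0 genes of all were higher and 3 lower (783 and 741 unadjusted), and 0 and 0 of the other basement membrane genes (11 and 1 unadjusted). That fit sets WT replicate 3 alone against the *Themis*-KO livers, and the cause of the lost calls was not tested.

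Deviations from the group mean correlated at 0.00028, −0.24 and −0.16 between same-numbered livers. The mean was −0.13, against 0.066 for differently numbered livers. Deviations within a group cancel, which ties these means to each other, so they cannot settle whether the numbers pair the livers. With the replicate block 17 genes were higher and 45 lower, and 0 of the members (5 unadjusted, edgeR) and 0 and 0 of the other basement membrane genes (24 and 4 unadjusted). *Nid1* then had an adjusted p of 0.0817.

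All genes higher and lower numbered 1207 and 1072 in DESeq2, 1212 and 967 with no filter, 1449 and 387 with total counts, 269 and 162 at 2-fold or more and 1664 and 1316 at an adjusted p under 0.1. Members higher numbered 2 at 2-fold or more. The other basement membrane genes numbered 16 higher in DESeq2, 20 higher and 1 lower with total counts, 5 and 1 at 2-fold or more and 20 higher at an adjusted p under 0.1.

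With 1 liver left out, all genes higher ran from 8 to 2228 and lower from 12 to 2039, members from 0 to 5 and from 0 to 1 (*Col18a1*, without *Themis*-KO replicate 3), and the other basement membrane genes from 0 to 21 and from 0 to 4. For all genes both low ends came without *Themis*-KO replicate 1. For members higher, and for the other basement membrane genes in both directions, they came without WT replicate 1 or 2 or *Themis*-KO replicate 1 or 2. Members lower numbered 0 without WT replicate 3 as well. Directions turned for *Col4a3* (−0.015 to 0.61), *Col4a4* (−0.046 to 0.82) and the log2 ratios of *Col4a3* to *Col4a4* (−0.53 to 0.59), *Col4a5* to *Col4a1* (−0.30 to 0.38) and *Col4a1* to *Col3a1* (−0.20 to 0.16).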
